A study of Mus musculus with 6 samples.

Results

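The 10 genes described here encode the myosin light chains of skeletal muscle, the kinase that phosphorylates them and the skeletal myosin-binding proteins. They were taken by gene symbol: the fast light chains Myl1 and Mylpf, the slow light chains Myl2 and Myl3, the developmental light chain Myl4, the light chain gene Myl6b, the kinase gene Mylk2, and Mybpc1, Mybpc2 and Mybph. All 10 were found among the 55401 gene identifiers of the counts table, and all 10 were among the 17222 genes that passed the filter on low counts. RNA-seq was performed on whole tibialis anterior (TA) muscle, a fast hindlimb muscle of the mouse, from 2 groups of 3 libraries injected with an adeno-associated virus (AAV) carrying either GFP or Rbm20. Every mouse was C57BL/6, carried the HSA-MCM-Bmal1-/- genotype (iMSBmal1), and received 2 mg of tamoxifen a day for 5 days. The labels give an age of 12 to 16 weeks. The study's methods give this as the age at tamoxifen, so the mice were older when muscle was collected. Virus was injected 4 weeks after tamoxifen, and muscle was collected 4 weeks after the virus. The comparison asks how muscle that lacks the clock factor BMAL1 differs when RBM20, a splicing regulator of titin, is supplied.

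Several features of the groups limit what they model. Cre is driven by the human skeletal actin promoter, so recombination is limited to muscle fibres, and other cells of the TA keep Bmal1. The study's methods describe mouse Rbm20 cDNA behind a CMV promoter and a higher dose of the RBM20 virus than of the GFP virus, so the transgene and the viral dose cannot be told apart. Neither group was without tamoxifen, virus or the knockout. The labels do not say that the libraries came from separate animals, so p-values measure the spread between these libraries only. In RNA from whole muscle, fewer cells of a type and less RNA per cell cannot be told apart.

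The motor head of each myosin heavy chain sits on a lever arm wrapped by an essential and a regulatory light chain. Fast and slow fibres make different forms of each, and phosphorylation of the regulatory light chain by skeletal myosin light chain kinase raises the calcium sensitivity of contraction. Myosin-binding protein C lies in stripes along the thick filament and holds myosin heads near its backbone, and myosin-binding protein H is a shorter relative of it.

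Total counts ranged from 41400132 to 54226618 per library. Rbm20 was at 164 to 170 CPM in AAV-GFP, where CPM is the count relative to the TMM-scaled library size, and at 406 to 545 CPM in AAV-RBM20, in the direction of the labels. The Rbm20 log2 fold change was 1.54 ± 0.15 (SE, edgeR adjusted p = 0.121, and 0.0107 with the replicate block). Arntl, the annotation's name for Bmal1, was at 31.0, 36.0 and 38.1 CPM in AAV-GFP and at 24.5, 27.6 and 26.9 CPM in AAV-RBM20. Its groups did not overlap, with a log2 fold change of -0.41 ± 0.13 (SE, edgeR adjusted p = 0.618, and 0.109 with the replicate block), and its part in the members' values was not tested. Both libraries numbered 3 stood apart: Ttn took 4.48% of counts in AAV-GFP replicate 3 and 9.05% in AAV-RBM20 replicate 3, against 16.9% to 17.8% in the other 4. In AAV-GFP replicate 3, genes of up to 1500 bp of exon had a median log2 CPM 0.54 above replicates 1 and 2 of its group, while genes over 12000 bp had one 0.29 below. The same medians in AAV-RBM20 replicate 3 were 0.23 and -0.07. Defining markers of skeletal muscle were high in every library, with Acta1, the skeletal actin gene, at 13481 to 20687 CPM and Ckm, the muscle creatine kinase gene, at 9659 to 17404 CPM.

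None of the 10 genes passed an adjusted p of 0.05 (edgeR's quasi-likelihood test, Benjamini-Hochberg over 17222 genes), and neither did any other gene, a background of 0%. Rbm20, the delivered gene, was not called either, so a gene not called here may still differ. At an unadjusted p under 0.05, Mybpc1 was higher and Mylk2 lower in AAV-RBM20, 2 of 10 genes against 7.9% of all genes tested. Values of the 2 groups did not overlap for 3 genes, with Mybpc1 higher and Mylk2 and Mybpc2 lower, against 16.8% of all genes. A fit that blocked on the replicate number also called none of the 10 at an adjusted p of 0.05, against 0.145% of all genes. At an unadjusted p it called 3 higher (Mybpc1, Myl4 and Mybph) and 2 lower (Mylk2 and Mybpc2), against 18.8%. The call depended on the tool: DESeq2 with the same block called Mybpc1 and Myl4 higher and Mylk2 lower, 3 of 10 against 3.7% of the 13883 genes it gave an adjusted p. DESeq2 without the block called none of the 10. Leaving out both libraries numbered 3, edgeR called none of the 10, against 4% of 17250 genes.

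**Figure D1:**
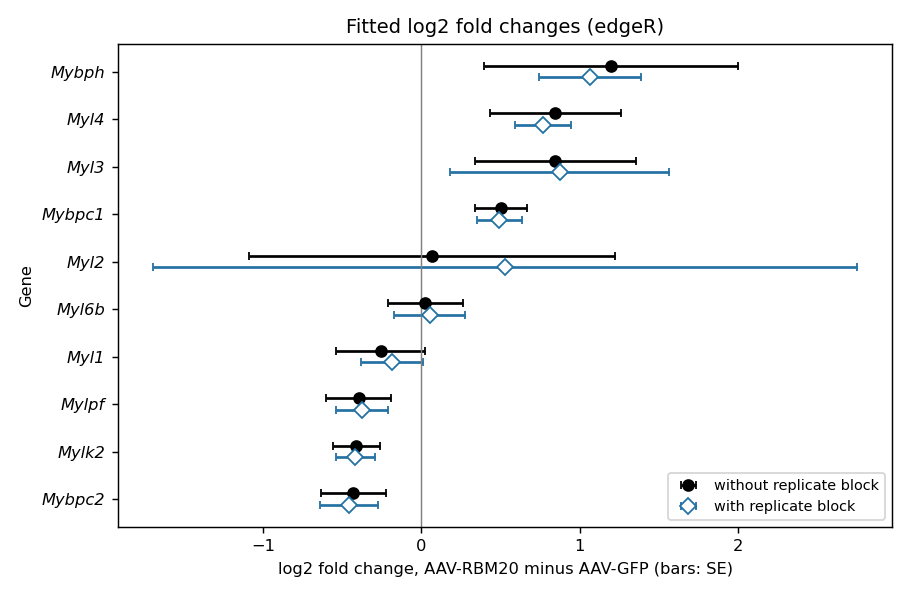
Fitted log2 fold changes (x axis, AAV-RBM20 minus AAV-GFP) of the 10 genes (y axis) from edgeR, without (filled circles) and with (open diamonds) the replicate number as a block, with bars of 1 SE, n = 3 libraries per group. Estimates ran from -0.43 for Mybpc2 to 1.20 for Mybph without the block, and the bars of Myl2 were the widest at 1.15 and 2.22.

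The median log2 fold change of the 10 genes was 0.05, beside 0.01 over all genes tested, with 6 positive and 4 negative. Together they took 1.41% to 2.25% of all counts of a library. Their summed level was 14811 to 22245 CPM in AAV-GFP and 14280 to 15641 CPM in AAV-RBM20, and AAV-GFP replicate 3 held the highest sum.

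Levels were compared between genes as CPM per kilobase of merged exons (GENCODE M21). Mylpf led at a mean of 3795 over the 6 libraries, followed by Myl1 at 2928, Mybpc2 at 973, Mybpc1 at 393 and Mylk2 at 279. The other 5 genes lay far lower, Myl3 at 17.4, Mybph at 9.22, Myl6b at 2.05, Myl4 at 1.51 and Myl2 at 0.996 CPM per kilobase. The step from Mylk2 to Myl3 was 16.1-fold in the means and held in 6 of 6 libraries. Mylpf above Myl1, Myl1 above Mybpc2 and Mybpc2 above Mybpc1 also held in 6 of 6. The remaining neighbours swapped places in 1 library each, and their ranges overlapped, so their order was not resolved. Both fast light chain genes lay above both slow ones in every library.

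**Figure D2:**
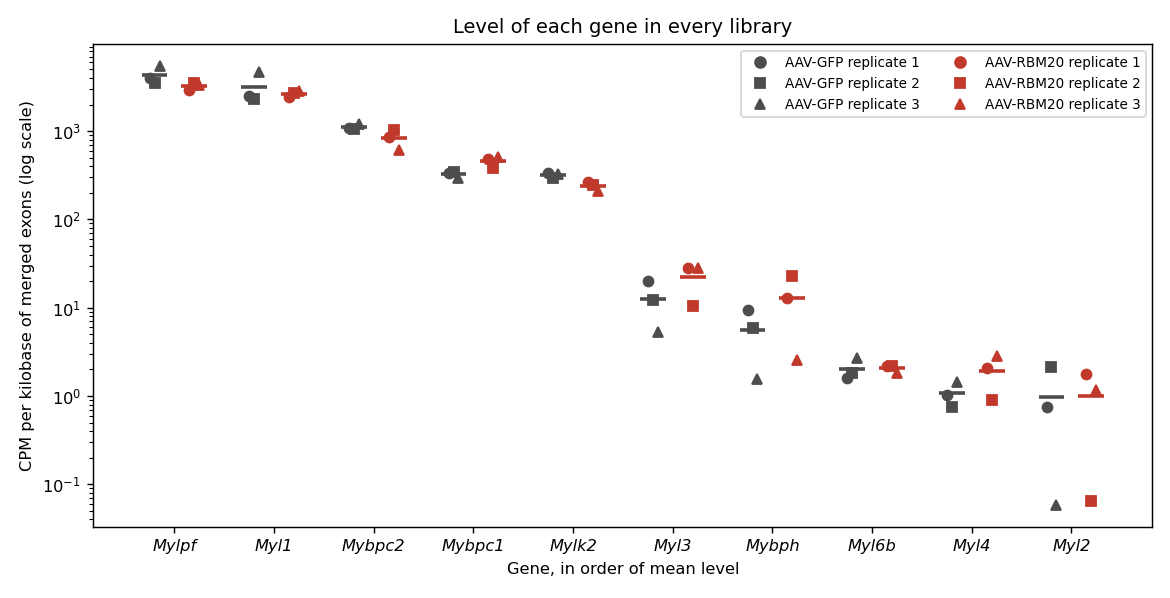
Level of each gene in CPM per kilobase of merged exons (y axis, log scale) in the 3 AAV-GFP (grey) and 3 AAV-RBM20 (red) libraries, with marker shape for the replicate number and a bar for the group mean. The 5 genes at the left lie above 200 in every library and the 5 at the right below 30, and Myl2 and Mybph scatter most.

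Mylpf encodes the fast regulatory light chain, the substrate of skeletal light chain kinase. It lies at chr7:127208890-127214298 (GRCm38, plus strand). Its level was 4218, 3702 and 5818 CPM in AAV-GFP replicates 1, 2 and 3 and 3124, 3744 and 3574 CPM in AAV-RBM20. AAV-GFP replicate 3 was the highest and the groups overlapped. The means were 4579 ± 1103 and 3481 ± 320 CPM (SD, n = 3), a log2 fold change of -0.40 ± 0.21 (SE, edgeR adjusted p = 0.654), and -0.19 without AAV-GFP replicate 3.

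Myl1 encodes both fast essential light chains, the long and the short form, from alternative starts (chr1:66924295-66945404, GRCm38, minus strand). It was at 5245, 4834 and 9756 CPM in AAV-GFP and at 4997, 5664 and 5938 CPM in AAV-RBM20. AAV-GFP replicate 3 stood well above the other 5 libraries, which lay close together with the groups mixed. The log2 fold change was -0.26 ± 0.28 (SE, edgeR adjusted p = 0.793), and without AAV-GFP replicate 3 its sign turned, to 0.13. The Myl1 count is uncertain, because the processed pseudogene Mylf-ps is 99.3% identical to it over 421 bp. Mylf-ps, singled out after its values were seen, held a mean of 93.3 CPM, 1.54% of the Myl1 level, and moved with Myl1 over the 6 libraries (Pearson's r = 0.997, a description).

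The ratio of Mylpf to Myl1, both per kilobase, was 1.57, 1.50 and 1.16 in AAV-GFP against 1.22, 1.29 and 1.18 in AAV-RBM20. The regulatory chain transcript was the more abundant in every library, and AAV-GFP replicate 3 had the lowest ratio. Promoters of these 2 genes are shown because their gene-level counts per kilobase were the highest of the members. Which start was used in these libraries was not measured. Each window holds 300 bases, most of them before a RefSeq start (GRCm38.p6), written 5′ to 3′ on the gene's strand, with capitals marking CAGCTG, a letter string that E-box factors of muscle can bind. The Myl1 window is chr1:66945007-66945306 on the minus strand and the Mylpf window chr7:127211358-127211657 on the plus strand. Each gene has 1 window, so other starts of Myl1 are not shown. The Mylpf window lies inside the GENCODE gene, which begins at chr7:127208890. The last 30 bases of both windows were found in a GENCODE transcript of the gene.
Myl1: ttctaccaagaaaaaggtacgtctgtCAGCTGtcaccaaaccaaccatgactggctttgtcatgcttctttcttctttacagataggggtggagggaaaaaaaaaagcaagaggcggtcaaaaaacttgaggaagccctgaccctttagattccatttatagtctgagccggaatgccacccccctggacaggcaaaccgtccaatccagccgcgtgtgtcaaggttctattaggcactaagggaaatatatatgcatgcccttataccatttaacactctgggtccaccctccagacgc
Mylpf: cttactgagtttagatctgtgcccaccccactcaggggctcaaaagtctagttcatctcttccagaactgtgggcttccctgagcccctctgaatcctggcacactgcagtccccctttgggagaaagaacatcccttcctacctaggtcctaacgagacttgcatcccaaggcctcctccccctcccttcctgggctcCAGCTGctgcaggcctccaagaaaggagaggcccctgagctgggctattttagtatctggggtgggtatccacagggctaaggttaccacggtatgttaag
Both windows hold 1 match.

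Myl2 encodes the slow regulatory light chain, shared with the ventricle of the heart (chr5:122100951-122113472, GRCm38, plus strand). It had 59, 174 and 6 counts in AAV-GFP against 190, 5 and 112 in AAV-RBM20. As CPM these were 1.45, 4.17 and 0.114 in AAV-GFP against 3.48, 0.124 and 2.31 in AAV-RBM20. One library of each group was near 0, AAV-GFP replicate 3 and AAV-RBM20 replicate 2, and the highest library exceeded the lowest 36.6-fold. The log2 fold change of 0.07 ± 1.15 (SE, edgeR adjusted p = 0.991) leaves a wide range in either direction.

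Myl3 encodes the slow essential light chain (chr9:110741861-110769798, GRCm38, plus strand). Its levels were 40.6, 24.8 and 10.8 CPM in AAV-GFP and 57.0, 21.3 and 58.3 CPM in AAV-RBM20. AAV-RBM20 replicates 1 and 3 were above all AAV-GFP libraries, but AAV-RBM20 replicate 2 fell among them. The log2 fold change was 0.85 ± 0.51 (SE, edgeR adjusted p = 0.660), with 0.48 when AAV-GFP replicate 3 was left out and 1.35 when AAV-GFP replicate 1 was.

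The slow share within each pair of light chains was computed per kilobase. Myl2 made up 0.0187%, 0.0613% and 0.00107% of Myl2 plus Mylpf in AAV-GFP against 0.0607%, 0.00181% and 0.0351% in AAV-RBM20. Counting error was small beside this scatter: the 95% Wilson interval was 0.000489% to 0.00233% for AAV-GFP replicate 3 and 0.0528% to 0.0711% for AAV-GFP replicate 2. The groups overlapped and their means differed by 0.0055 percentage points (exact two-sided permutation p = 0.8). Myl3 made up 0.779%, 0.517% and 0.113% of Myl3 plus Myl1 in AAV-GFP against 1.15%, 0.381% and 0.987% in AAV-RBM20. Its mean share was 0.469% ± 0.336 and 0.837% ± 0.404 (SD, n = 3, exact permutation p = 0.3), again with overlap. The difference of 0.368 percentage points came to 0.189 when AAV-GFP replicate 3 was left out and to 0.214 when AAV-RBM20 replicate 1 was. Leaving out AAV-RBM20 replicate 2 gave 0.596, and leaving out both libraries numbered 3 gave 0.115. The smallest p that 3 against 3 libraries allow is 0.1. These intervals cover counting error only.

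Slow markers beside the slow light chains did not follow one order. Myh7, the slow heavy chain gene, was at 1.77, 5.97 and 0.095 CPM in AAV-GFP and 1.96, 2.39 and 0.741 CPM in AAV-RBM20. AAV-GFP replicate 3 was lowest for Myl2, Myl3 and Myh7 alike. AAV-RBM20 replicate 2 was near 0 for Myl2 but had the second highest Myh7 level. All 13 slow fibre markers were tested and none passed the adjusted threshold. Of these, 3 were higher and none lower at an unadjusted p under 0.05, against 7.9% of all genes. The median log2 fold change of the 13 was 0.39, with 9 positive and 4 negative. Their summed level was 418 to 1134 CPM in AAV-GFP and 955 to 1479 CPM in AAV-RBM20. Actn2, which encodes a Z-disc actinin made in all fibres, held 78.4% to 85.9% of that sum, so the sum is not a level of slow fibre RNA. Without Actn2 it was 79.2 to 245 CPM in AAV-GFP and 159 to 252 CPM in AAV-RBM20, with overlap. The most abundant of them were Actn2, at a log2 fold change of 0.55 ± 0.35, and Atp2a2, the slow calcium pump gene, at 0.48 ± 0.17 (SE, edgeR adjusted p = 0.668 and 0.618). Myh7 was at -0.62 ± 1.01 (adjusted p = 0.868). The slow troponin genes, named after their values were seen, were at 0.85 ± 0.78 for Tnnc1, 1.69 ± 0.59 for Tnni1 and 0.86 ± 0.83 for Tnnt1. Their adjusted p was 0.750, 0.618 and 0.763, and each overlapped between groups at a low mean level (1.35, 1.44 and 1.56 CPM).

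**Figure D3:**
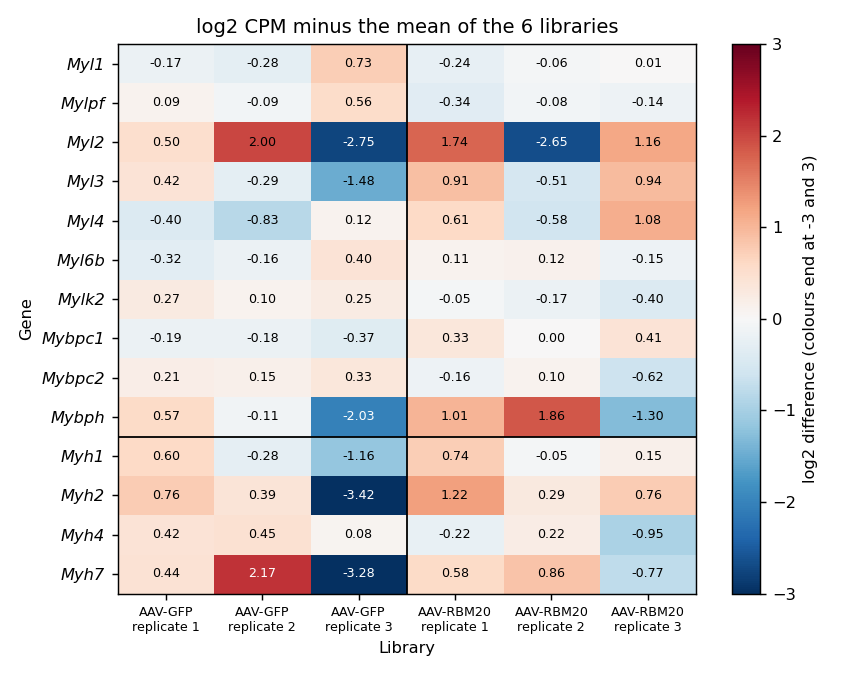
log2 CPM of each gene (rows) minus its mean over the 6 libraries (columns), for the 10 genes and, under the line, 4 adult myosin heavy chain genes, with colours ending at -3 and 3. AAV-GFP replicate 3 is low for Myl2 (-2.75), Myl3 (-1.48), Mybph (-2.03), Myh2 (-3.42) and Myh7 (-3.28), while AAV-RBM20 replicate 2 is low for Myl2 (-2.65) and high for Mybph (1.86).

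Myl4 encodes the essential light chain of embryonic muscle and of the atrium (chr11:104550663-104595753, GRCm38, plus strand). It was at 4.72, 3.50 and 6.76 CPM in AAV-GFP and 9.53, 4.15 and 13.3 CPM in AAV-RBM20. Each AAV-RBM20 library exceeded the AAV-GFP library of the same number, while the groups overlapped through AAV-RBM20 replicate 2. The log2 fold change was 0.85 ± 0.41 without the block (SE, edgeR adjusted p = 0.642) and 0.77 ± 0.18 with it (adjusted p = 0.119). DESeq2 with the block gave 0.76 ± 0.22 (adjusted p = 0.0275). Without AAV-RBM20 replicate 3 the edgeR estimate was 0.47.

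Other genes of new or denervated fibres were read beside Myl4. Of 16 markers of regeneration and denervation, 13 were tested, 10 with a positive and 3 with a negative log2 fold change. The median was 0.43. At an unadjusted p under 0.05, 6 were higher and 1 lower, against 7.9% of all genes tested. Without overlap between groups, 5 were higher and 1 lower, against 16.8% of all genes. The lower gene in both counts was Myod1, at a log2 fold change of -0.32 ± 0.11 (SE, edgeR adjusted p = 0.618). Runx1, a transcription factor gene induced on denervation, was the marker that passed with the block, at a log2 fold change of 1.26 ± 0.14 (SE, edgeR adjusted p = 0.0271). Without the block its log2 fold change was 1.25 ± 0.15 (SE, edgeR adjusted p = 0.257). It was at 4.77, 6.01 and 5.95 CPM in AAV-GFP and at 13.8, 12.4 and 13.5 CPM in AAV-RBM20, with no overlap. Myh3 and Myh8, the embryonic and perinatal heavy chain genes, named here after their values were seen, also did not overlap between groups and had log2 fold changes of 2.00 ± 0.59 and 2.00 ± 0.47 (SE, edgeR adjusted p = 0.618 and 0.617). Their highest library was AAV-RBM20 replicate 1, at 8.38 and 10.4 CPM, whereas Myl4 was highest in AAV-RBM20 replicate 3.

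Myl6b encodes an essential light chain of slow muscle and non-muscle myosin (chr10:128494157-128498685, GRCm38, minus strand). Levels of 2.98, 3.33 and 4.96 CPM in AAV-GFP and 4.05, 4.08 and 3.36 CPM in AAV-RBM20 overlapped. It had the narrowest spread of the 5 low genes, 1.67-fold from lowest to highest, and a log2 fold change of 0.02 ± 0.24 (SE, edgeR adjusted p = 0.980). Its neighbour in sequence Myl6, at a mean of 40.0 CPM, is 90.1% identical to it over 152 bp, so a part of the Myl6b reads may be uncertain.

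Mylk2 encodes the skeletal myosin light chain kinase (chr2:152911352-152923068, GRCm38, plus strand). It was at 980, 875 and 969 CPM in AAV-GFP and at 784, 725 and 615 CPM in AAV-RBM20. All 3 AAV-RBM20 libraries lay below all 3 AAV-GFP libraries. The means were 941 ± 57.7 and 708 ± 85.4 CPM (SD, n = 3), 1.33-fold apart, with a log2 fold change of -0.41 ± 0.15 (SE, edgeR adjusted p = 0.618). With the block it was -0.42 ± 0.12 (edgeR adjusted p = 0.157), and DESeq2 with the block gave an adjusted p of 0.0208. The exact two-sided permutation p was 0.1, the smallest possible. No window for Mylk2 was among the promoter sequences used.

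Myosin-binding protein C is made in a slow form from Mybpc1, which fast fibres also express, and in a fast form from Mybpc2. The fold changes of the 2 genes had opposite signs. Mybpc1 (chr10:88518279-88605152, GRCm38, minus strand) was at 1536, 1541 and 1350 CPM in AAV-GFP and at 2196, 1747 and 2317 CPM in AAV-RBM20. The lowest AAV-RBM20 library, replicate 2, was above the highest AAV-GFP library. Means of 1476 ± 109 and 2087 ± 300.1 CPM (SD, n = 3) were 1.41-fold apart, a log2 fold change of 0.50 ± 0.16 (SE, edgeR adjusted p = 0.618). With the block it was 0.49 ± 0.14 (edgeR adjusted p = 0.160), and DESeq2 with the block gave an adjusted p of 0.0142.

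Mybpc2 (chr7:44501699-44524656, GRCm38, minus strand) was at 3964, 3810 and 4326 CPM in AAV-GFP and at 3075, 3677 and 2236 CPM in AAV-RBM20. The groups did not overlap, but AAV-RBM20 replicate 2 came within a small distance of AAV-GFP replicate 2. The means were 4033 ± 265 and 2996 ± 724 CPM (SD, n = 3), 1.35-fold apart, with a log2 fold change of -0.43 ± 0.21 (SE, edgeR adjusted p = 0.641). DESeq2 with the block gave an adjusted p of 0.0601, and the edgeR estimate was -0.25 without AAV-RBM20 replicate 3. AAV-RBM20 replicate 3 had both the highest Mybpc1 and the lowest Mybpc2 level of the 6 libraries.

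Per kilobase, Mybpc1 made up 23.6%, 24.4% and 19.9% of Mybpc1 plus Mybpc2 in AAV-GFP against 36.3%, 27.5% and 45.3% in AAV-RBM20. Every AAV-RBM20 share was above every AAV-GFP share. The mean share was 22.6% ± 2.38 in AAV-GFP and 36.3% ± 8.88 in AAV-RBM20 (SD, n = 3), a difference of 13.7 percentage points, with an exact two-sided permutation p of 0.1, the smallest that 3 against 3 libraries can give. Counting error did not set these shares, since the Wilson interval of AAV-RBM20 replicate 2 was 27.3% to 27.7% and that of AAV-GFP replicate 2 was 24.2% to 24.6%. The size rested in part on the libraries numbered 3: without both the difference was 7.89 percentage points. Mybpc2 remained the more abundant of the pair per kilobase in all 6 libraries.

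**Figure D4:**
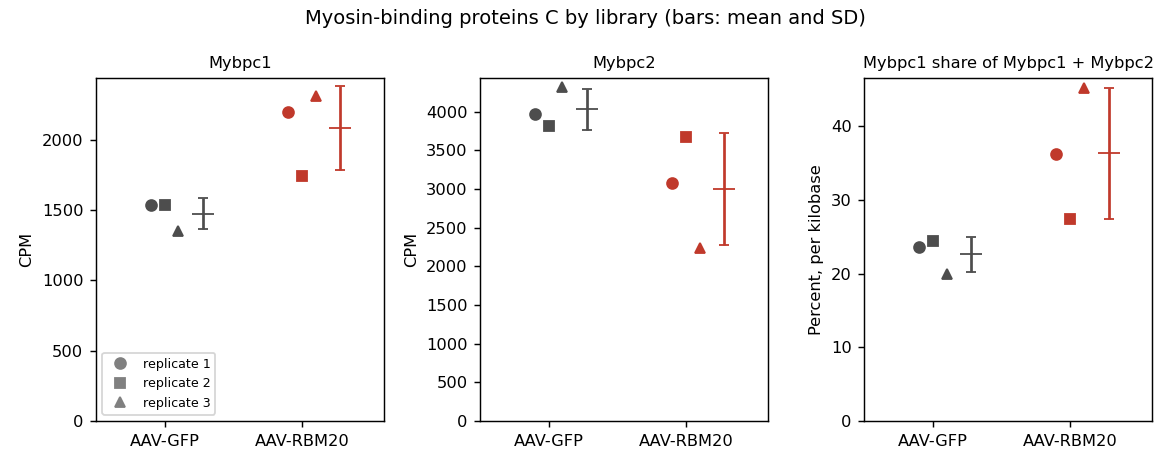
Mybpc1 and Mybpc2 in CPM (left and middle y axes) and the Mybpc1 share of their sum in percent per kilobase (right y axis) in each AAV-GFP and AAV-RBM20 library, with marker shape for the replicate number and mean and SD beside the points (n = 3). Mybpc1 is above and Mybpc2 below the AAV-GFP libraries in all 3 AAV-RBM20 libraries, and the share reaches 45.3% in AAV-RBM20 replicate 3.

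The promoters of this pair are shown because the fold changes of the 2 transcripts differed in sign. The Mybpc1 window is chr10:88605103-88605402 and the Mybpc2 window chr7:44524620-44524919, both GRCm38.p6, minus strand, RefSeq, with CAGCTG in capitals as above.
Mybpc1: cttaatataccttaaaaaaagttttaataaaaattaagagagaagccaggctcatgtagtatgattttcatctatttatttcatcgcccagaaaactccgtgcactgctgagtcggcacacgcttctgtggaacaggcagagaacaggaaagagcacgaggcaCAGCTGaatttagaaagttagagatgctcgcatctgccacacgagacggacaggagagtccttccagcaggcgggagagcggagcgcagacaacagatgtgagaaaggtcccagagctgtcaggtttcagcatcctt
Mybpc2: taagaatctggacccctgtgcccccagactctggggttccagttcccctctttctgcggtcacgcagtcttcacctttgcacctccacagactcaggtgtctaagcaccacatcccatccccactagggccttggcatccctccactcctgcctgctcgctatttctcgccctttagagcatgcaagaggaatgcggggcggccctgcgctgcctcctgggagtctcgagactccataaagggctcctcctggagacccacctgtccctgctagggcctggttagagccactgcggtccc
Mybpc1 holds 1 match and Mybpc2 none. RefSeq gave 10 windows for 9 of the 10 genes, 2 of them for Myl2. CAGCTG, which reads the same on both strands, was in 6 of the 10 windows (Myl1, Mylpf, Mybpc1, Mybph and both of Myl2) and in 16.3% of all 32851 windows of this length. The 2 Myl2 windows end at chr5:122092773 and chr5:122093238, before the GENCODE start of Myl2 at chr5:122100951. Their last 30 bases were not found in a GENCODE transcript of Myl2, so these matches may not lie at its start in muscle. CACGTG, the E-box letters of the clock factors, was in 0 of 10 and in 7.15% of all windows. The MEF2 consensus was in 0 of 10 and in 3.19% of all. A match is a letter string in a window and says nothing of binding.

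Mybph encodes myosin-binding protein H (chr1:134193448-134201232, GRCm38, plus strand). It was at 21.9, 13.7 and 3.59 CPM in AAV-GFP and at 29.9, 53.8 and 5.99 CPM in AAV-RBM20. Both libraries numbered 3 were the lowest of their group, and each AAV-RBM20 library exceeded the AAV-GFP library of the same number. The groups overlapped, with 15.0-fold between the lowest and highest library. The log2 fold change was 1.20 ± 0.80 (SE, edgeR adjusted p = 0.684), and 1.07 ± 0.32 with the block (edgeR adjusted p = 0.1996). Left-out libraries moved it, to 0.46 without AAV-RBM20 replicate 2 and to 1.80 without AAV-GFP replicate 1. A total of 1162 bp of Mybph exon is shared with Adora1 on the other strand, which was at 0.123 to 0.348 CPM, so the count is uncertain where the strand setting is not known. The same limit holds for 252 bp of Mybpc1 exon, shared with Gm48752, and 192 bp of Mybpc2 exon, shared with Gm44646. It also holds for 95 bp of Myl3 (Pth1r), 60 bp of Myl2 (Ccdc63) and 3 bp of Myl4 (Gm22000).

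The libraries numbered 3 departed from replicates 1 and 2 in a way that differed between members. In AAV-GFP replicate 3, the log2 level relative to replicates 1 and 2 was 0.95 for Myl1, 0.56 for Mylpf and -4.00 for Myl2. Mybph was low in both such libraries, at -2.25 and -2.73, whereas Myl2 in AAV-RBM20 replicate 3 was at 1.61, above its replicates 1 and 2. Mylk2 differed by 0.06 and -0.29 and Mybpc1 by -0.19 and 0.24, among the smaller shifts. For both genes the shifts had opposite signs in the 2 groups and widened the group difference. Without both libraries numbered 3, the edgeR log2 fold change of Mylk2 was -0.29 ± 0.08 (SE), against -0.41 with all libraries. That of Mybpc1 was 0.37 ± 0.10 (SE), against 0.50. The part of exon length, Ttn share or any other property of these libraries in the members' values was not tested.

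Other genes of the thick filament gave a background for the members. A list of 23 light chain, kinase, phosphatase, M-band and heavy chain genes had 20 tested, with a median log2 fold change of -0.003. None passed an unadjusted p of 0.05 in edgeR without the block, against 7.9% of all genes. With the block none was higher and 4 were lower at that p, against 18.8%. Without overlap between groups, none was higher and 2 were lower, against 16.8% of all genes. These were Myl9, a smooth muscle regulatory light chain gene, and Smyd1, which encodes a methyltransferase of myofibril assembly. Both were named after their values were seen. Myh4, the heavy chain gene of the fastest fibres, was at 39043, 39941 and 30953 CPM in AAV-GFP and at 25153, 34084 and 15177 CPM in AAV-RBM20. Only AAV-RBM20 replicate 2 reached the AAV-GFP range, and the log2 fold change was -0.56 ± 0.30 (SE, edgeR adjusted p = 0.657). Like Mybpc2, Myh4 was lowest in AAV-RBM20 replicate 3. Myh1, the heavy chain gene of IIX fibres, was at 12147, 6584 and 3585 CPM in AAV-GFP and at 13326, 7704 and 8906 CPM in AAV-RBM20, with overlap.

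Among the 12 fast fibre markers, none was higher and 4 were lower at an unadjusted p under 0.05, against 7.9% of all genes tested. Without overlap between groups, 5 were lower and none higher, against 16.8% of all genes. The log2 fold change was negative for 10 and positive for 2. These 2 were Myh2 at 0.76 ± 0.80 and Myh1 at 0.42 ± 0.42 (SE, edgeR adjusted p = 0.788 and 0.772). The median log2 fold change was -0.41 and the summed level 98759 to 109603 CPM in AAV-GFP and 64075 to 99705 CPM in AAV-RBM20. The fast troponin genes, named after their values were seen, had log2 fold changes of -0.77 ± 0.18 for Tnnc2, -0.65 ± 0.21 for Tnni2 and -0.60 ± 0.18 for Tnnt3 (SE, edgeR adjusted p = 0.617, 0.618 and 0.618). The most abundant marker besides Myh4 was Atp2a1, the fast calcium pump gene, at -0.02 ± 0.24 (SE, edgeR adjusted p = 0.985). Of the 10 muscle identity markers, 2 were lower and none higher at an unadjusted p under 0.05, against 7.9% of all genes. Both of these, Tnnt3 and the fast actinin gene Actn3, are on the fast fibre list as well and were counted there. The median of the identity list was -0.24, with Acta1 at -0.14 ± 0.21 and Ckm at -0.34 ± 0.21.

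Markers of other cells were counted in the same libraries. All 17 macrophage markers had counts in every library, and their summed level was 42.2 to 142 CPM in AAV-GFP and 91.3 to 227 CPM in AAV-RBM20, highest in replicate 3 of each group. Of the 17, 16 had a positive log2 fold change, with a median of 0.94, the largest of the 7 marker lists. None passed the adjusted threshold without the block. There 2 were higher and none lower at an unadjusted p under 0.05, against 7.9% of all genes. In the fit with the block 15 were higher and none lower at that p, against 18.8% of all genes. With the block, Ctss, Ccr2 and Ptprc, which encode a lysosomal protease, a chemokine receptor and the common leukocyte antigen, passed at log2 fold changes of 1.49 ± 0.15, 1.51 ± 0.15 and 1.28 ± 0.17 (SE, edgeR adjusted p = 0.0251, 0.0251 and 0.0478). Without it their adjusted p was 0.658, 0.641 and 0.618. Smooth muscle and pericyte markers, 11 of 11 tested, had none past an unadjusted p of 0.05, a median log2 fold change of 0.0004 and summed levels of 2777 to 3227 CPM in AAV-GFP and 2641 to 2910 CPM in AAV-RBM20. Des, the desmin gene, which muscle fibres express and which is also on the identity list, held 73.4% to 78.7% of that sum. The other 10 markers summed to 687 to 703 CPM in AAV-GFP and 678 to 703 CPM in AAV-RBM20. Des and Rgs5, a pericyte gene, had log2 fold changes of -0.14 ± 0.15 and -0.08 ± 0.15. The part of macrophage RNA in the members' values was not tested.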

How the data were processed

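RNA from TA muscle was sequenced as 6 stranded, ribosomal RNA-depleted libraries. According to the methods and the processing notes, the authors aligned reads with HISAT2 (mm10) and used HTSeq for counts per gene. The deposited counts are whole numbers without normalisation. Tool versions, annotation release and strand setting were not given in the sources used here, so overlapping genes are uncertain. A second deposited table of size-factor-scaled counts holds no further measurement and was not used. Symbols, positions and merged exon lengths came from GENCODE M21 (55141 of 55401 identifiers matched).

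Groups came from the labels. Counts were fitted with edgeR 4.0.16 in R 4.3.3 (filterByExpr, TMM, robust glmQLFit, glmQLFTest, no covariate), with Benjamini-Hochberg adjustment over 17222 genes and a threshold of 0.05. The SE was the log2 fold change divided by the square root of F. Shares were compared by exact two-sided permutation tests. log2 CPM used a prior count of 2. The script was tested on simulated data.

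Deviations from the group means correlated over genes at 0.418, 0.201 and 0.484 for same-numbered libraries, all above the minimum of 0.1, so the numbers in the titles were taken to pair the libraries. Only the titles repeat the numbers: the sample descriptions and the column names of the counts number the AAV-RBM20 libraries on from the AAV-GFP ones. Those labels therefore give no pairing, and none of the labels says what the numbers stand for. Moreover, 2 differently numbered pairs also passed 0.1, AAV-GFP 2 with AAV-RBM20 1 at 0.216 and AAV-GFP 1 with AAV-RBM20 2 at 0.131. Replicates 1 and 2 are thus hardly told apart. In the lane list of the study's RBM20 blots, some numbers, seemingly of mice, are marked R with GFP and L with Rbm20. Whether the sequenced libraries were paired by mouse in this way is not stated, and the main test took no pairing. Alternatives were the replicate block, DESeq2 1.42.0, limma-voom (limma 3.58.1), other scalings and filters, and leaving out libraries. All members, Rbm20, and by a set rule genes of the marker lists were named: those past the threshold without or with the block, or else the 2 of largest mean CPM. For Myl2, Mylpf and Mybph the 3 best correlated genes were added, taken from those whose mean log2 CPM was 3 or more, of which 1 is not reported here. Members and lists were chosen with earlier results of these data known. Replicates were compared by chi-square over genes and none was a copy of another.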

Additional observations from a re-analysis of the deposited data

How the results depend on the processing

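The count of genes past the threshold, 0 in the planned test, was 8 (6 higher, 2 lower) when low counts were not filtered, 25 (15 higher, 10 lower) with the replicate block, 75 (36 higher, 39 lower) with DESeq2, 513 (182 higher, 331 lower) when DESeq2 took the replicate block, and 690 (337 higher, 353 lower) without replicate 3 of both groups. For the 10 members it was 3 (2 higher, 1 lower) with DESeq2 and the block and 0 under the others. Genes of the marker lists numbered 1, 4, 3, 20 and 18 in the same 5 settings. What sets these counts apart was not tested. Mybpc1, Mylk2, Mybpc2, Mylpf, Myl3, Myl4 and Mybph kept the sign of their log2 fold change in all 18 settings, the replicate block included. The others did not. Myl1 ran from -0.44 to 0.13 with 1 library left out, and was -0.47 without replicate 2 and 0.09 without replicate 3 of both groups. Myl2 ran from -0.63 to 1.37 with 1 library left out, negative without AAV-GFP replicate 1 (-0.10) or 3 (-0.49) or AAV-RBM20 replicate 1 (-0.63) or 3 (-0.05), and was -0.82 without replicate 1, 1.88 without replicate 2 and -0.58 without replicate 3 of both. Myl6b ran from -0.12 to 0.28, negative without AAV-GFP replicate 1 (-0.12) or 2 (-0.06) or AAV-RBM20 replicate 1 (-0.01) or 2 (-0.03), and was -0.16 without replicate 1, -0.11 without replicate 2 and 0.37 without replicate 3 of both. The Myl2 share ran from -0.00856 to 0.0226 percentage points with 1 library left out and was -0.0127 without replicate 1, 0.038 without replicate 2 and -0.00877 without replicate 3 of both. The Myl3 share difference ran from 0.189 to 0.596 percentage points with 1 library left out, and was 0.369, 0.620 and 0.115 without replicate 1, 2 or 3 of both. The Mybpc1 share difference ran from 9.25 to 18.1 percentage points with 1 library left out and stayed at 13.7 in same-numbered pairs (paired exact permutation p = 0.25, the smallest 3 pairs allow). With 3 libraries a group, exact tests cannot pass 0.05, and at 5 to 190 counts Myl2 is the least precise member.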

Other observations

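Genes whose log2 CPM over the 6 libraries was most like that of 3 members were listed among 7939 genes, as a description. The 6 points share group, depth and replicate number. For Mylpf these were Tmbim4 (Pearson's r = 0.995), Zfp637 (0.994) and Aven (0.994). For Mybph they were Nelfcd (0.987), Rgl2 (0.985) and Sh3rf2 (0.984). For Myl2 they were Dcaf17 (0.960) and Wdr3 (0.938), whose ranges over libraries were far narrower than that of Myl2: Dcaf17 lay between 9.46 and 11.2 CPM and Wdr3 between 9.58 and 11.5 CPM.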
